A study of Papio anubis with 18 samples.

Results

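The embryonic stem cell (ESC) lines B15 and B4 of the olive baboon, Papio anubis, were compared by RNA-seq through all 3 libraries of each, 6 of the 12 libraries in the series. The libraries of each line were taken by the line name in the sample labels. The other 6 libraries come from the induced pluripotent stem cell (iPSC) lines 160-2 and M14939#3 and serve here to place the ESC lines. No treatment, genotype, sex or donor is given in the labels for any line, and all 4 were cultured on a feeder layer in a medium made for human pluripotent cells. Each group is a single line, so a difference between B15 and B4 is a difference between these lines and says nothing of ESC in general. In the descriptions each library carries a number behind a letter p that the labels leave undefined. It was 21, 28 and 43 for replicates 1 to 3 of B15 and 16, 18 and 25 for those of B4, so it was higher in B15 at each replicate number.

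ESC are grown from the inner cell mass of an early embryo, and iPSC from body cells that are returned to a similar state by reprogramming factors. Both kinds of cell divide without limit in culture and can form the tissues of the body. Each line stems from one individual, so lines of a kind can differ through sex, inherited variants, imprinting, X inactivation, derivation and time in culture. The files give genes as Ensembl identifiers without names, and 0 of them could be paired with a symbol. Markers of pluripotent cells, of differentiated cells and of the feeder cells could therefore not be looked up, and the labelled cell type was not checked against them.

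The deposited table holds read counts for 29475 genes. B15 had 107354779 counts over its 3 libraries and B4 had 74565236. In each ESC line replicates 1 and 2 were run on 2 lanes and replicate 3 on 1 lane, which balances the lane set between the ESC lines. The iPSC lines differ from them: only replicate 1 of 160-2 and only replicate 2 of M14939#3 were run on 2 lanes. B15 replicate 2 stood apart from the other libraries in composition: its 100 most abundant genes took 23.0% of its counts, against 16.8% to 19.6% in the others, and its TMM scaling factor was 0.779. Levels are given in CPM, counts scaled to a common total from the library's own total. They are not scaled to gene length, so they are compared between lines for a gene and not between genes.

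Few genes were off in one ESC line and on in the other. A gene was called near silent in a line when each of its 3 libraries was under 0.5 CPM, and expressed when each was at 2 CPM or more. By these limits 9894 genes were expressed in both ESC lines, 12540 were near silent in both, and 4 switched, 2 in each direction. The ESC pair had the fewest such switches of the 6 pairs of lines: B4 and M14939#3 had 6, B15 and M14939#3 had 10, the 2 iPSC lines had 11, B4 and 160-2 had 13, and B15 and 160-2 had 19. These counts were not tested, and they are small and set by the limits. The other pairs were counted at these limits only, so the order of the pairs was not checked at others. The switch counts use CPM without a lane term, and pairs of an ESC with an iPSC line are not balanced for the lane set. With the expressed level at 1 CPM the ESC lines had 12 switches and at 5 CPM they had 2. With CPM scaled by the TMM factors they had 5, of which 3 were near silent in B4 and 2 in B15. Without B15 replicate 1 they had 11, without B15 replicate 2 they had 8 and without B4 replicate 2 they had 7.

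Both genes that were off in B15 were on in B4 and in both iPSC lines. ENSPANG00000032398 had 20.6, 6.64 and 30.4 CPM in replicates 1 to 3 of B4, and 0.016, 0 and 0.041 CPM in those of B15. The iPSC lines had 13.6, 16.6 and 13.1 CPM (160-2) and 8.78, 9.10 and 9.74 CPM (M14939#3). All 9 libraries of the other lines lay far above the 3 of B15, and B4 replicate 2 was the lowest of the 9. ENSPANG00000023193 had 40.1, 12.03 and 41.9 CPM in B4 and 0.096, 0.049 and 0.083 CPM in B15. It had 28.1, 24.9 and 21.01 CPM in 160-2 and 13.3, 20.7 and 13.2 CPM in M14939#3. Here too B15 stood alone, and B4 replicate 2 was again the lowest library of the other 3 lines.

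By quasi-likelihood testing in edgeR, with p-values adjusted by Benjamini and Hochberg's method over all genes tested, ENSPANG00000023193 was lower in B15 than in B4, with a log2 difference of -8.47 (SE 0.56, adjusted p = 8.46e-07). For ENSPANG00000032398 the log2 difference was -9.59 (SE 0.66, edgeR adjusted p = 8.46e-07). Its 3 B15 libraries held 2 counts together, so this value rests on very few reads. With counts divided by TMM-scaled totals, B4 was 1200-fold higher. The exact 95% interval was 332 to 9910 and covers counting error only. Both calls were kept in each of 26 alternative analyses, among them the 2-lane libraries alone and each fit that left out a library. For both genes the iPSC lines were not past the threshold against each other, with edgeR adjusted p of 0.215 for ENSPANG00000032398 and 0.207 for ENSPANG00000023193.

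The 2 genes that were off in B4 were above the near-silent level in every library of the other 3 lines. ENSPANG00000032176 had 2.40, 5.00 and 3.78 CPM in replicates 1 to 3 of B15, and 0.11, 0.17 and 0.15 CPM in those of B4. Its iPSC levels lay between, from 1.213 to 1.495 CPM in 160-2 and from 1.14 to 1.98 CPM in M14939#3. ENSPANG00000023597 had 2.83, 2.86 and 10.4 CPM in B15, where replicate 3 was the highest, and 0.25, 0.083 and 0.059 CPM in B4. It had 6.94, 9.92 and 17.1 CPM in 160-2 and 1.30, 1.26 and 4.50 CPM in M14939#3. In B15 and in both iPSC lines replicate 3, the library of each line with the highest p number, had the highest level of this gene. In B4 replicate 3 also had the highest p number, but there it had the lowest level (0.059 CPM). In both ESC lines replicate 3 was also the only library run on 1 lane, so there the p number and the lane set cannot be told apart. The log2 difference of B15 and B4 was 4.06 in the 2-lane libraries alone and 7.335 in the 1-lane libraries alone. With the p number added to the fit as a term, the log2 difference of ENSPANG00000023597 was 4.52 and stayed past the threshold (edgeR adjusted p = 0.00739). The p number was higher in B15 at each replicate number, so this term cannot fully tell it apart from the line.

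ENSPANG00000032176 had a log2 difference of 4.90 (SE 0.54, edgeR adjusted p = 2.97e-04), higher in B15, and ENSPANG00000023597 had one of 5.19 (SE 0.68, edgeR adjusted p = 0.00134). Each of these calls was kept in 25 of 26 alternatives and lost in the 2-lane libraries alone, with edgeR adjusted p of 0.29 and 0.274. The iPSC lines also differed in ENSPANG00000023597, which was lower in M14939#3 than in 160-2, with a log2 difference of -2.35 (SE 0.49, edgeR adjusted p = 0.0122).

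**Figure D1:**
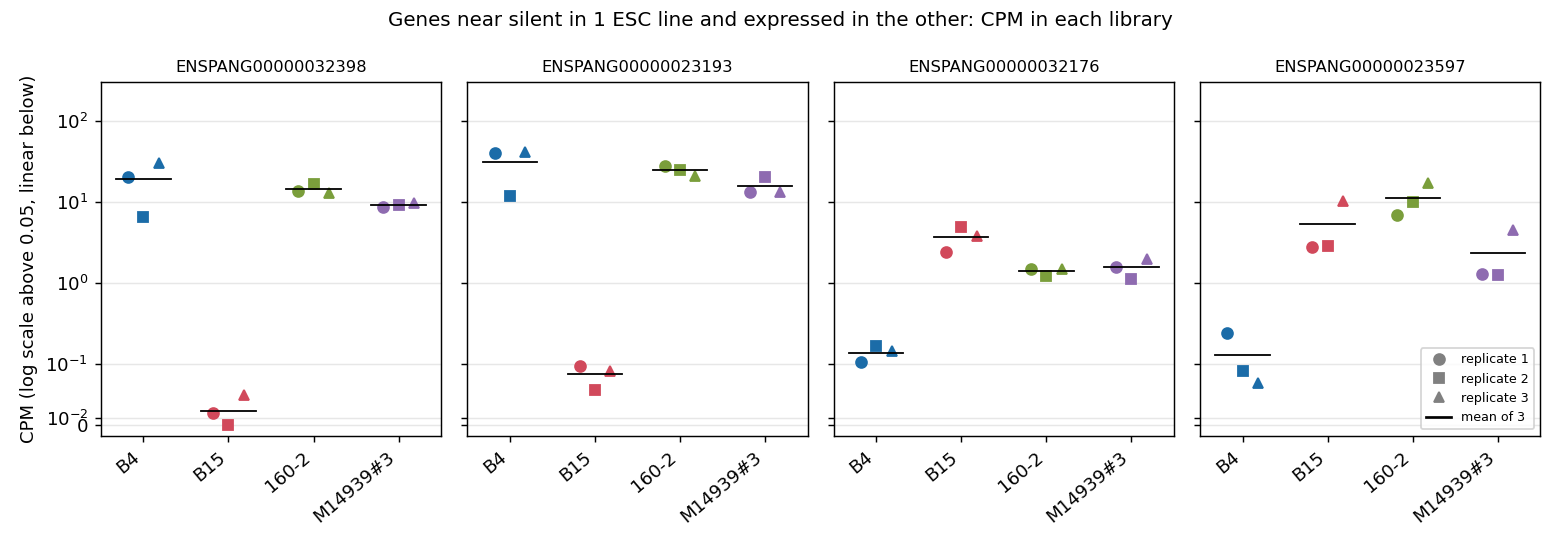
CPM of the 4 genes that are near silent in 1 ESC line and expressed in the other, on an axis that is logarithmic above 0.05 and linear below. Points are libraries (the shape gives the replicate), bars are means of 3, and the iPSC lines lie above the near-silent ESC line in each panel.

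Beside these switches, the test across all genes gives the extent of the difference. Of 17106 genes tested, 63 (0.368%) were past an adjusted p of 0.05, 29 higher in B15 (0.170%) and 34 lower (0.199%). At least 4-fold differences were found for 24 of the 29 and 23 of the 34, and differences of at least 16-fold for 9 and 10. The 63 were called on these same libraries, so a lack of overlap is no further support for the calls. The share of all tested genes without overlap was not counted. Among the 63, the levels of the 3 B15 libraries did not overlap those of the 3 B4 libraries for 62. The exception was ENSPANG00000011642, with 7.07, 0.34 and 3.11 CPM in B15 and 0.18, 0.17 and 0.35 CPM in B4. Its call (edgeR adjusted p = 0.0446) was lost in 17 of 24 alternatives, with adjusted p up to 0.999. It was lost without B15 replicate 3, any library of B4 or any iPSC library (edgeR adjusted p 0.064 to 0.256). Over all tested genes the median absolute log2 difference was 0.301, so most genes lay close to equal in the lines.

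**Figure D2:**
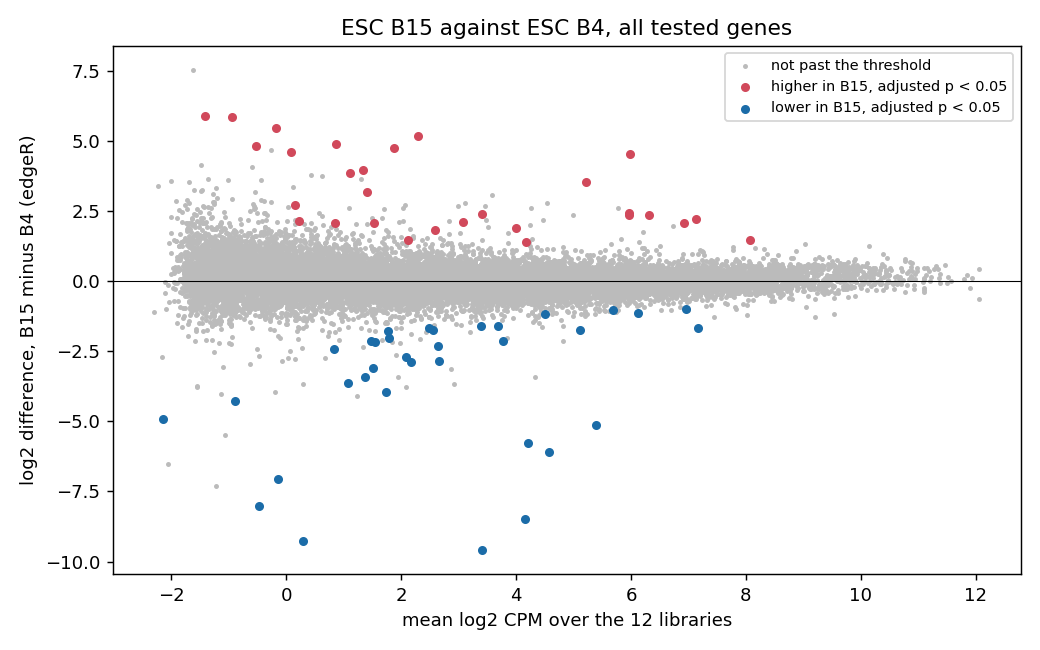
Log2 difference of B15 and B4 for each tested gene against its mean log2 CPM over the 12 libraries. The 29 genes higher in B15 (red) and the 34 lower (blue) lie at low to fairly high levels and not among the most abundant genes. The largest differences are genes lower in B15.

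The count depended on single libraries and on the fit. It was 196 without B15 replicate 1, 39 without B15 replicate 3, 31 without B4 replicate 1 and 26 without B4 replicate 3. Without B15 replicate 2, the library that stood apart in composition, the count was 65. In all 12 fits that left out a library, ESC or iPSC, 23 of the 63 were called, 12 higher and 11 lower. Libraries with the same replicate number, which also share the lane set, deviated together in the 2 ESC lines. With that number as a block the count was 51 in the fit of 12 libraries. In fits of the 6 ESC libraries it was 34 with the replicate block and 24 without it. Within the 2-lane libraries 4 genes were called. The 1-lane libraries hold 1 library of each ESC line, so their fit takes the spread from the iPSC libraries and assumes that the ESC libraries vary alike. It called 72 genes, of which 24 were among the 63. With the p number of the descriptions, on a log2 scale, as a further term it was 25. All 63 kept their direction in each of these fits, but for the fits of 6 ESC libraries, in which 59 were tested and kept it.

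Near silence in one ESC line was found for 18 of the 63 genes, evenly for both lines. Of the 29 genes higher in B15, 9 were near silent in B4, and of the 34 lower in B15, 9 were near silent in B15. Beside the 4 switches, the other 14 (7 in each direction) reached 2 CPM in only some or none of the libraries of the line where they were higher. Mean levels in the higher line ran from 0.71 to 31.4 CPM for the genes near silent in B15 and from 0.91 to 5.38 CPM for those near silent in B4. Genes at this level pass the filter on low counts through the line in which they are detected, so these counts are given as a description. The share of all tested genes near silent in only 1 ESC line was not counted. So neither the 18 of 63 nor the even split is read as particular to the called genes.

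Among the genes near silent in B15, 2 had no count at all there. ENSPANG00000026752 had 2.47, 1.49 and 2.96 CPM in replicates 1 to 3 of B4 and 0 CPM in each of the B15 libraries. B4 replicate 2 kept it just below the limit for a switch. In the iPSC lines it had 0.99 to 2.17 CPM (160-2) and 0.62 to 1.47 CPM (M14939#3). ENSPANG00000001543 had 0.32, 1.16 and 1.70 CPM in B4, 0 CPM in B15, 0.41 to 0.59 CPM in 160-2 and 0.22 to 2.04 CPM in M14939#3. With B15 set at a floor of 3 counts over its 3 libraries, and the counts of each line divided by its TMM-scaled total, the first was at least 88.7-fold and the second at least 38-fold higher in B4. The edgeR adjusted p was 2.97e-04 for ENSPANG00000026752, whose call was lost only in the 2-lane libraries alone (0.179). For ENSPANG00000001543 it was 0.0347, and this call was lost in 13 of 24 alternatives, the replicate block among them (0.0689), with adjusted p up to 0.704. It was lost without B15 replicate 1 (0.0514) or 3 (0.121), B4 replicate 2 (0.0822) or 3 (0.182), any library of 160-2 (0.0589 to 0.0671) or M14939#3 replicate 1 (0.0603). No gene called had 0 counts in all of B4.

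The iPSC lines were set beside these 18 genes by the same limits. Of the 9 near silent in B15, 7 were above the near-silent level in both iPSC lines (at least 1 library at 0.5 CPM or more), 1 was near silent in both and 1 in 160-2 only. Of the 9 near silent in B4, 5 were above it in both iPSC lines, 2 were near silent in both and 2 were near silent in 160-2 only. On the log2 CPM scale both iPSC lines lay nearer to B4 than to B15 for 8 of the 9 genes near silent in B15. For the 9 near silent in B4 the positions were mixed: both iPSC lines were nearer to B15 for 3 genes, both nearer to B4 for 2, only M14939#3 nearer to B15 for 3 and only 160-2 for 1. These positions are a description: the genes were picked on the ESC values, so iPSC were not tested against ESC for them. The same counts were not made for all genes near silent in only 1 ESC line. So the 8 of 9 is not read as a trait of the called genes.

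A second group of 20 genes was expressed in both ESC lines and differed in level, 11 higher and 9 lower in B15. All 20 were expressed in both iPSC lines as well. Over all genes, 9894 were expressed in both ESC lines, and each other pair of lines shared 9767 to 10149 expressed genes. The share of the 9894 that was expressed in every line was not counted, so 20 of 20 is not read as a trait of these genes. The log2 differences of the 20 genes had sizes from 1.40 to 4.55 for the higher and 1.004 to 2.14 for the lower. The remaining 25 of the 63 were near silent in neither ESC line and below 2 CPM in at least 1 ESC library, 9 higher and 16 lower in B15.

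The 2 genes with the greatest rise in this group parted the iPSC lines in opposite ways. ENSPANG00000015002 had 119, 66.5 and 135 CPM in replicates 1 to 3 of B15 and 5.71, 3.32 and 4.95 CPM in B4. Line 160-2 lay with B15, at 101, 132 and 123 CPM, while M14939#3 had 14.9, 15.1 and 29.6 CPM, between the ESC lines. ENSPANG00000018372 had 48.1, 45.2 and 76.9 CPM in B15 and 6.34, 4.90 and 4.10 CPM in B4. For this gene M14939#3 lay above B15 for 2 of its libraries, at 86.3, 98.3 and 70.6 CPM, and 160-2 lay below every B4 library, at 2.24, 2.06 and 3.16 CPM.

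In edgeR, ENSPANG00000015002 had a log2 difference of 4.55 (SE 0.30, adjusted p = 8.46e-07), and this call was kept in all 26 alternatives. The difference was 3.55 for ENSPANG00000018372 (SE 0.28, edgeR adjusted p = 6.19e-06), and its call was lost in 1 alternative, the 2-lane libraries alone (0.054). Between the iPSC lines, the M14939#3 minus 160-2 difference was -2.66 for ENSPANG00000015002 (SE 0.27, edgeR adjusted p = 6.64e-05) and 5.03 for ENSPANG00000018372 (SE 0.30, edgeR adjusted p = 2.77e-07), on the log2 scale. So the iPSC line that was nearer to B15 was 160-2 for the first gene and M14939#3 for the second.

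Lower in B15 with expression in both lines, ENSPANG00000029210 had 4.41, 8.54 and 8.42 CPM in B15 and 30.1, 36.9 and 34.9 CPM in B4. Levels were 3.51, 2.04 and 2.89 CPM in 160-2 and 14.3, 6.403 and 10.6 CPM in M14939#3, so every iPSC library was below every B4 library. ENSPANG00000036502 had 17.5, 7.37 and 23.4 CPM in B15 and 50.9, 35.9 and 81.7 CPM in B4. Of the iPSC lines, 160-2 reached up to 65.2 CPM and lay above every B15 library, and M14939#3 had 13.9 to 25.7 CPM, overlapping B15. By edgeR the log2 difference was -2.14 for ENSPANG00000029210 (SE 0.37, adjusted p = 0.0185) and -1.75 for ENSPANG00000036502 (SE 0.28, adjusted p = 0.0112). Neither call was firm: each was lost in 7 of 26 alternatives. ENSPANG00000029210 was lost without B15 replicate 3 (edgeR adjusted p 0.111), B4 replicate 2 (0.065) or B4 replicate 3 (0.0853), with adjusted p from 4.2e-08 to 0.828 over the 26. ENSPANG00000036502 was lost without B15 replicate 3 (0.0781), B4 replicate 1 (0.0538) or B4 replicate 3 (0.0806), with a range from 3.75e-07 to 0.753.

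**Figure D3:**
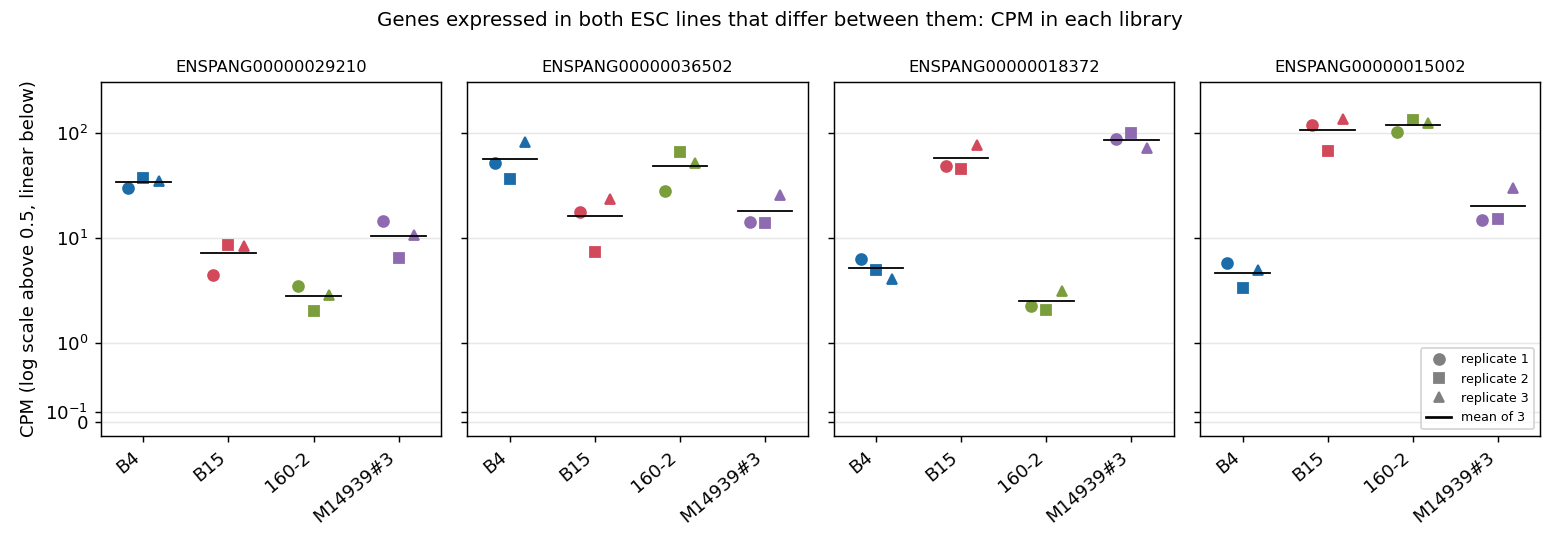
CPM of the 4 genes named from those expressed in both ESC lines, on an axis that is logarithmic above 0.5 and linear below; points are libraries and bars are means of 3. ENSPANG00000015002 pairs 160-2 with B15, and ENSPANG00000018372 pairs M14939#3 with B15.

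A pair of genes outside both groups was picked after its values were seen. ENSPANG00000032323 had the lowest p of all genes and was high in B4 alone. Its B4 libraries had 86.0, 60.8 and 62.5 CPM, while the 3 B15 libraries had 1.20, 1.02 and 1.41 CPM and the 6 iPSC libraries 1.22 to 2.24 CPM. The log2 difference of B15 and B4 was -5.77 (SE 0.30, edgeR adjusted p = 1.12e-07), kept in all 26 alternatives. ENSPANG00000016491 joined B4 with M14939#3: it had 121, 101 and 109 CPM in B4 and 54.0, 59.1 and 56.9 CPM in M14939#3. In contrast it had 0.77, 2.57 and 6.97 CPM in B15 and 0.43 to 0.90 CPM in 160-2. Its log2 difference between the ESC lines was -5.11 (SE 0.58, edgeR adjusted p = 0.00126), and this call was lost in the 2-lane libraries alone (0.07) and with the replicate block in the 6 ESC libraries (0.235).

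For the 63 genes together, the iPSC lines did not follow a single ESC line. Each iPSC line was placed by its mean log2 CPM on the way from the mean of B4 to that of B15, and counted with the ESC line on its side of the midpoint. Both iPSC lines were nearer to B4 for 22 genes (34.9%) and both nearer to B15 for 18 (28.6%). For 16 genes (25.4%) only 160-2 was nearer to B15, and for 7 (11.1%) only M14939#3. Over all 17106 tested genes the same 4 shares were 33.6%, 20.1%, 14.0% and 32.4%. M14939#3 alone with B15 was thus a frequent pattern over all genes and the rarest of the 4 among the 63, a difference that was not tested. For most tested genes the ESC lines lie close together (median absolute log2 difference 0.301). The side of the midpoint is less certain for them than for the 63, so the shares are not fully alike. Of the 63, 10 had 160-2 and 9 had M14939#3 within 0.1 of the midpoint, where the side is uncertain. Beyond the ESC means were 9 genes past B4 and 14 past B15 in 160-2, and 10 and 12 in M14939#3.

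**Figure D4:**
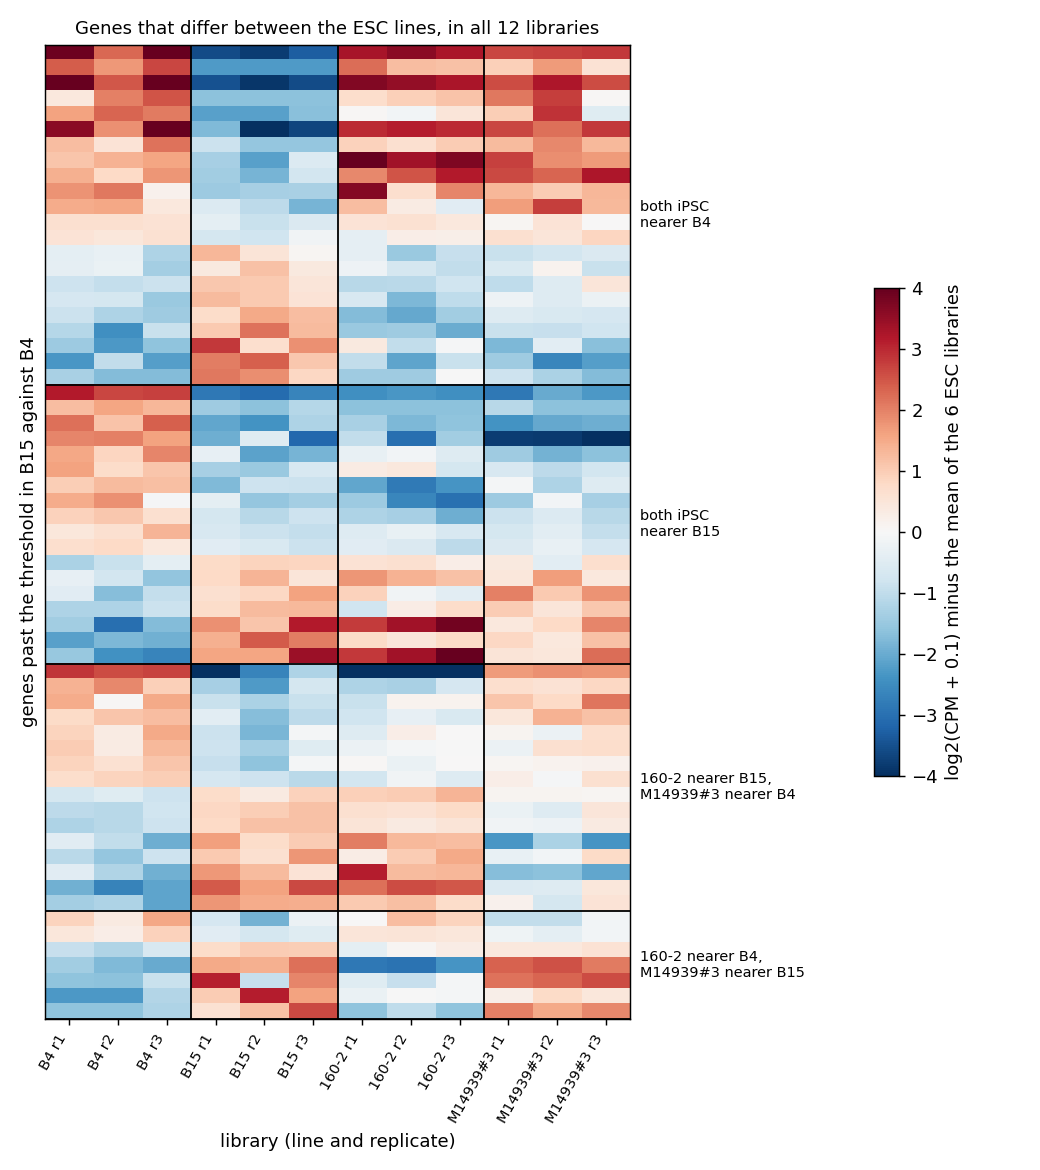
Levels of the 63 genes (rows) in the 12 libraries (columns) as log2(CPM + 0.1) minus the mean of the 6 ESC libraries, with colours ending at 4 in both directions. Rows are grouped by the ESC line to which each iPSC line is nearer, in groups of 22, 18, 16 and 7 genes.

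The iPSC lines were also compared with each other in the same fit. The levels contrasted are those of iPSC libraries only, but the ESC libraries enter through the shared estimate of each gene's spread and the lane term: without B15 replicate 1 the iPSC lines differed in 2471 genes. Between M14939#3 and 160-2, 1513 of the 17106 tested genes (8.84%) were past the threshold. Of the 63 genes that part the ESC lines, 22 (34.9%) were among them, which is 1.45% of the 1513. They were 10 of the 29 higher in B15 and 12 of the 34 lower. Relative to 160-2, M14939#3 was higher for 3 and lower for 7 of the 10, and higher for 7 and lower for 5 of the 12. By level, they were 5 of the 18 genes near silent in 1 ESC line and 8 of the 20 expressed in both. In separate fits of the ESC and of the iPSC libraries, which share neither the spread nor the lane term, 11 of 24 genes (45.8%) were in both, where 15.7% of all genes tested parted the iPSC lines. The number of ESC calls differed between settings, so each overlap is given with it. The overlap was 10 of 26 genes (38.5%, against 7.73% of all genes) without B4 replicate 3, 11 of 31 (35.5%, against 7.40%) without B4 replicate 1, 13 of 39 (33.3%, against 7.59%) without B15 replicate 3 and 89 of 196 (45.4%, against 14.2%) without B15 replicate 1. Without an iPSC library both the overlap and the share of all genes were lower. They were 13 of 50 (26.0%, against 4.31%), 11 of 48 (22.9%, against 1.82%) and 11 of 52 (21.2%, against 2.92%) without replicates 1 to 3 of 160-2, and 13 of 49 (26.5%, against 2.61%) and 12 of 56 (21.4%, against 3.38%) without replicates 1 and 2 of M14939#3. The fall was small without replicate 3 of M14939#3, at 18 of 55 (32.7%, against 8.15%). With the p number in the fit the overlap was 5 of 25 (20%), against 0.345% of all genes.

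**Figure D5:**
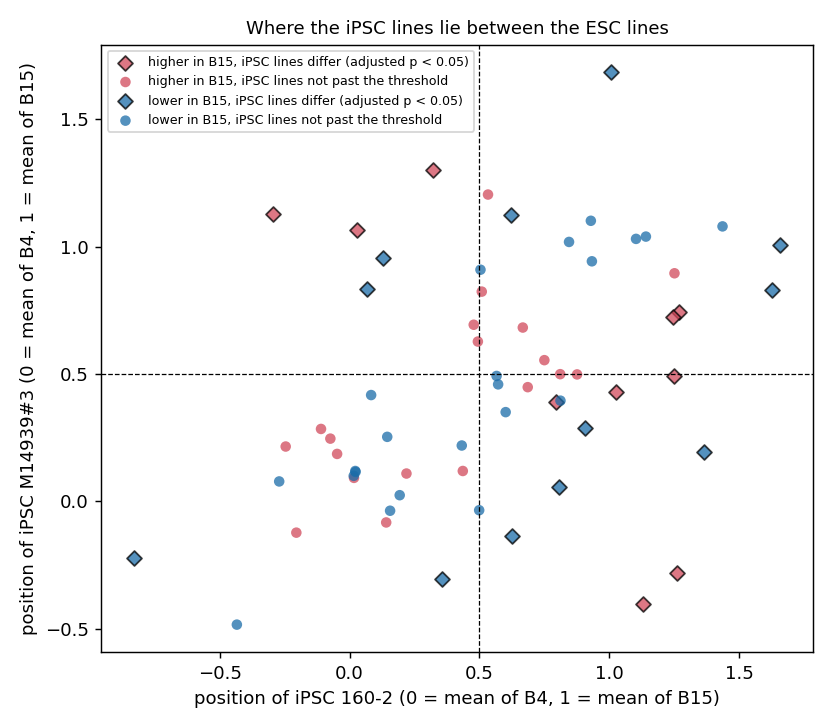
Position of each of the 63 genes in 160-2 (horizontal) and M14939#3 (vertical) on the way from the mean log2 CPM of B4 (0) to that of B15 (1), with dashed lines at the midpoint. Diamonds mark the 22 genes past the threshold between the iPSC lines, which lie in all 4 quadrants.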

How the data were processed

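The authors deposited raw read counts per gene and lane. The submitters' processing notes name featureCounts and edgeR for them. An aligner, genome build or annotation is not given in the sources consulted. Per the labels' protocols, SMART-Seq v4 and Nextera XT were used, which do not mark the strand, so reads of genes that overlap on opposite strands cannot be told apart. How reads of near-identical copies were counted is not given in the sources used here. Columns were mapped to libraries by description, and lanes of a library were summed. An index that is 1 for counting noise alone was 2.27 between the lanes of B15 replicate 1, the library with the most counts. It was 1.23 to 1.37 in the other libraries run on 2 lanes.

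Tests used edgeR 4.0.16 in R 4.3.3: TMM, filterByExpr, the robust quasi-likelihood fit of 12 libraries with line and lane set as terms (7 residual degrees of freedom), and Benjamini-Hochberg adjustment over 17106 genes. Log2 differences are edgeR's shrunken values, and each SE comes from the unshrunken difference and its F statistic. Positions use log2 CPM with TMM and a prior count of 2, without a lane term. Total counts per library ran from 12049925 (B4 replicate 2) to 62634176 (B15 replicate 1). Alternatives used other scaling, filters, terms and libraries, DESeq2 1.42.0 and limma-voom 3.58.1.

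The labels do not say whether replicates were separate cultures, so p-values measure only the spread between these libraries. Statements on low counts cover counting error only. Replicate numbers carry no stated meaning, but deviations of same-numbered ESC libraries from their line means correlated across genes at 0.259, 0.409 and 0.441, so they were also used as a block. On counts simulated for B15 against B4 over 17106 genes, 21% of 100 2-fold and 73% of 100 4-fold changes were recovered, with 5 unchanged genes called. The simulated libraries vary independently, with no lane effect, no difference in composition and no shared deviation of same-numbered libraries. Recovery in the real libraries may therefore differ.

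The lines, genes and limits were chosen with earlier results of these data known. Named genes are the 2 with the greatest change in each direction, without overlap of the ESC libraries, among the switches and among genes expressed in both ESC lines (a longer list was planned for the case of known symbols, and planned marker and gene lists were not used). ENSPANG00000011642, ENSPANG00000026752, ENSPANG00000001543, ENSPANG00000032323 and ENSPANG00000016491 fall outside this rule and were picked with their values in view.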

Additional observations from a re-analysis of the deposited data

How the results depend on the processing

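The count of 63 genes between the ESC lines became 391 without a filter on low counts, 230 by DESeq2, 39 without the lane term, 4 in the 2-lane libraries alone, 24 in the 6 ESC libraries, 34 there with the replicate block and 25 with the p number of the descriptions as a term (an alternative chosen after seeing the data). Leaving out a library gave 26 to 196. The overlap of 22 with the iPSC pair became 166 (of 391), 88 (of 230) and 10 (of 39) in the first 3 of these settings. In the 2-lane libraries it was 0, where each iPSC line has 1 library and the iPSC comparison called no gene, so this value says nothing of the overlap. It was 37 of 72 in the 1-lane libraries, 11 in separate fits of ESC and iPSC libraries, 5 with the p number, and 10 to 89 without a library (shares of the ESC calls from 21.2% to 47.7%). The 4 switches became 12 and 2 with the expressed level at 1 and 5 CPM, and 5 to 11 without a library. The positions of the iPSC lines stayed within 1.5 times of their counts in all alternatives run, and no named gene reversed. The replicate block of 12 libraries ended only the calls of ENSPANG00000001543 and ENSPANG00000011642 (edgeR adjusted p 0.0573) among the named genes. The cause of these shifts was not tested. In the simulated counts, which lack these features of the real libraries, differences of 2-fold were mostly not recovered by the fit of 12 libraries.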
